A study of Mus musculus with 26 samples.

Results

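The 31 genes described here make, regulate, move or store cholesterol, and were taken as a named list of the sterol pathway from the 55401 genes of the count tables. All 31 were found by Ensembl identifier and symbol, and all 31 passed the filter on low counts in every fit; the lowest count of any of them in a library was 532. By role, 8 enzymes lead from acetyl-CoA to the farnesyl and geranylgeranyl units, 11 from squalene to cholesterol, 5 genes regulate the sterol response, and 7 take up, carry, export or store cholesterol. Their RNA was sequenced in 26 libraries of dorsal root ganglia of mice, which hold the cell bodies of sensory nerves, and of neurons cultured from them, in 10 groups.

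Mice labelled cKO (conditional knockout) carried Ahr f/f together with Thy1-CRE(ERT2/EYFP), that is, floxed copies of *Ahr*, the gene of the ligand-activated aryl hydrocarbon receptor, and a Cre recombinase that needs tamoxifen, driven by a *Thy1* promoter and so meant for neurons and not for the other cells of the ganglion. Control mice were floxed and are labelled without Cre; in the naive and in the injured group 2 of 3 had 1 floxed allele (Ahr fl/+) and 1 had 2 (Ahr fl/fl). Both genotypes of the naive and injured groups (n = 3 mice each) were given tamoxifen when 28 weeks old, on 5 days and at 100 mg/kg a day, and the lumbar ganglia of a mouse made 1 sample. Naive ganglia were taken 5 weeks later, and injured ganglia came from mice whose sciatic nerve was crushed at that time, 1 day after the crush. A supplemental table held ganglia from the side of the operation (ipsilateral) and from the opposite side (contralateral) 1 day after sham surgery (2 male mice per genotype, controls Ahr f/+ and Ahr fl/fl), and semi-purified neurons 24 hours after seeding (3 samples per genotype, female, controls Ahr fl/fl). The labels give no tamoxifen for these supplemental groups.

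The libraries of naive and injured ganglia held 20169388 to 23540375 counts, those of sham ganglia 39306414 to 58751270 and those of neurons 25299938 to 88180611. In naive ganglia *Ahr* had 21.1 ± 2.69 CPM (control) and 23.7 ± 2.82 CPM (cKO; SD, n = 3), with 35.8 ± 1.46 and 37.8 ± 0.939 CPM in injured ganglia and 50.8 ± 5.34 and 49.3 ± 6.75 CPM in neurons, so in cKO it was not lower by more than the spread between libraries, and its level gives no check of the genotypes: cKO stands for the libraries labelled so. *Thy1* was higher in cKO in every setting, with 674 to 760 CPM (control) against 1194 to 1336 CPM (cKO) in the naive libraries. CPM is the count scaled to the size of the library, with TMM factors over all 26 libraries together. In 2 injured libraries the labelled sex and the sex-linked transcripts differed: control replicate 3 is labelled male with female transcripts, and cKO replicate 2 female with male ones. By transcripts, the injured cKO group held 2 males and 1 female, and the naive groups and injured controls were female.

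Cholesterol is built from acetyl-CoA through mevalonate, farnesyl diphosphate, squalene and lanosterol, and most of the enzymes are under a shared control. When the membrane of the endoplasmic reticulum runs low in sterol, SCAP carries the SREBP factors (encoded by *Srebf1* and *Srebf2*) to the Golgi, where they are cut free to enter the nucleus; INSIG proteins hold them back when sterol is plentiful. Oxysterols made from cholesterol activate the LXR receptors, whose known targets include the exporters *Abca1* and *Abcg1*. In nerve, cholesterol is a main lipid of myelin, and growing axons need it for new membrane.

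The promoters of 4 genes are shown because the results below concern synthesis enzymes, 12 of 19 of which rose after injury in control ganglia, and because SREBP is known to act beside the factor NF-Y, which reads the letters CCAAT. Each line is the 250 bases before the start of the gene, 5′ to 3′ on the gene's strand, from RefSeq on GRCm38.p6; capitals mark CCAAT on either strand (it reads ATTGG where it lies on the other strand) and, in *Hmgcs1* alone, the sterol response element core TCACNCCAC. *Hsd17b7* and *Ebp* had the largest rises of the 19 enzymes in control ganglia, *Mvk* has the most CCAAT matches in its window of the 4, and *Hmgcs1* did not pass the test after injury.
Hsd17b7 (chr1:169969206-169969455, minus strand): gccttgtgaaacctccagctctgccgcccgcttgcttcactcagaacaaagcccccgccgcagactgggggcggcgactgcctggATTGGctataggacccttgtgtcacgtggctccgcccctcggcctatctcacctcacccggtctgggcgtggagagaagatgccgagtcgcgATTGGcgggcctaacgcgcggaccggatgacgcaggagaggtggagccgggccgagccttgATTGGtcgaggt
Ebp (chrX:8193513-8193762, minus strand): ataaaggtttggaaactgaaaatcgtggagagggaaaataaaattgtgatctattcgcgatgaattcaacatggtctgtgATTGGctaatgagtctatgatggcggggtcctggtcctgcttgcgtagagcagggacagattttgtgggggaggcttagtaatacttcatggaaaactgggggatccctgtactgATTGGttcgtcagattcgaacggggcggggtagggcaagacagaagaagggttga
Mvk (chr5:114444019-114444268, plus strand): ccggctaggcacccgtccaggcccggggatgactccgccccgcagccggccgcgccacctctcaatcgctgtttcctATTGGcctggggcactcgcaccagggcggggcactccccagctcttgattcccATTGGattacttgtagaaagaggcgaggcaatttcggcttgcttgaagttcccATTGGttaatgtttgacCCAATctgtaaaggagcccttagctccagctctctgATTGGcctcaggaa
Hmgcs1 (chr13:119690101-119690350, plus strand): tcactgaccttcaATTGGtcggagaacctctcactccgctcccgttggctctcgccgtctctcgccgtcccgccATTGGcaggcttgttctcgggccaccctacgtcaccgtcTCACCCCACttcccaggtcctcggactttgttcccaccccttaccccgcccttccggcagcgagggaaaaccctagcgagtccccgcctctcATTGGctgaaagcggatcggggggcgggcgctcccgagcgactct
The promoter table matched 25 of the 31 genes, with windows of 300 bases (250 before and 50 from the start on). CCAAT was found on either strand in 21 of these 25 genes (84%), against 42.4% of the 8387 tested genes with a promoter and a mean of at least 10 CPM. All 9 matched enzymes from squalene onward had it, 6 of 7 of the earlier enzymes, 4 of 5 regulators and 2 of 4 transport genes. The core TCACNCCAC was found in 1 of 25 (*Hmgcs1*, on the plus strand from 137 bases before the start), against 1.42% of the same 8387 genes. A match is a run of letters and not a measured binding site, and the *Hmgcs1* match overlaps no CCAAT.

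One day after the crush, 13 of the 31 genes had risen in control ganglia and none had fallen: 12 of the 19 synthesis enzymes and the exporter gene *Abca1*. Over all 21261 genes tested, 21.6% were called, 12.9% higher and 8.73% lower (edgeR quasi-likelihood test, Benjamini-Hochberg adjusted p under 0.05, the rule for every call here). The median log2 fold change was 0.26 for the synthesis enzymes and 0.17 for the 31 genes, against -0.02 for all genes. None of the 5 regulators passed the test. In cKO ganglia 6 of the 31 rose and 2 fell (*Dhcr7* and *Abcg1*), where 18.6% of all genes were called, 10.7% higher and 7.89% lower, and the median of the 31 was 0.10 against -0.0046 for all genes. That median was 0.048 without injured cKO replicate 3 and 0.027 with sex by transcripts as a covariate. Of the naive and injured libraries, only injured cKO replicates 2 and 3 are male by transcripts. In every fit with that covariate, here and below, the injured cKO level thus rests on replicate 1 alone, and the part of sex was not tested. In each genotype on its own, 6 genes rose: *Pmvk*, *Fdps*, *Sqle*, *Hsd17b7*, *Ebp* and *Abca1*.

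**Figure D1:**
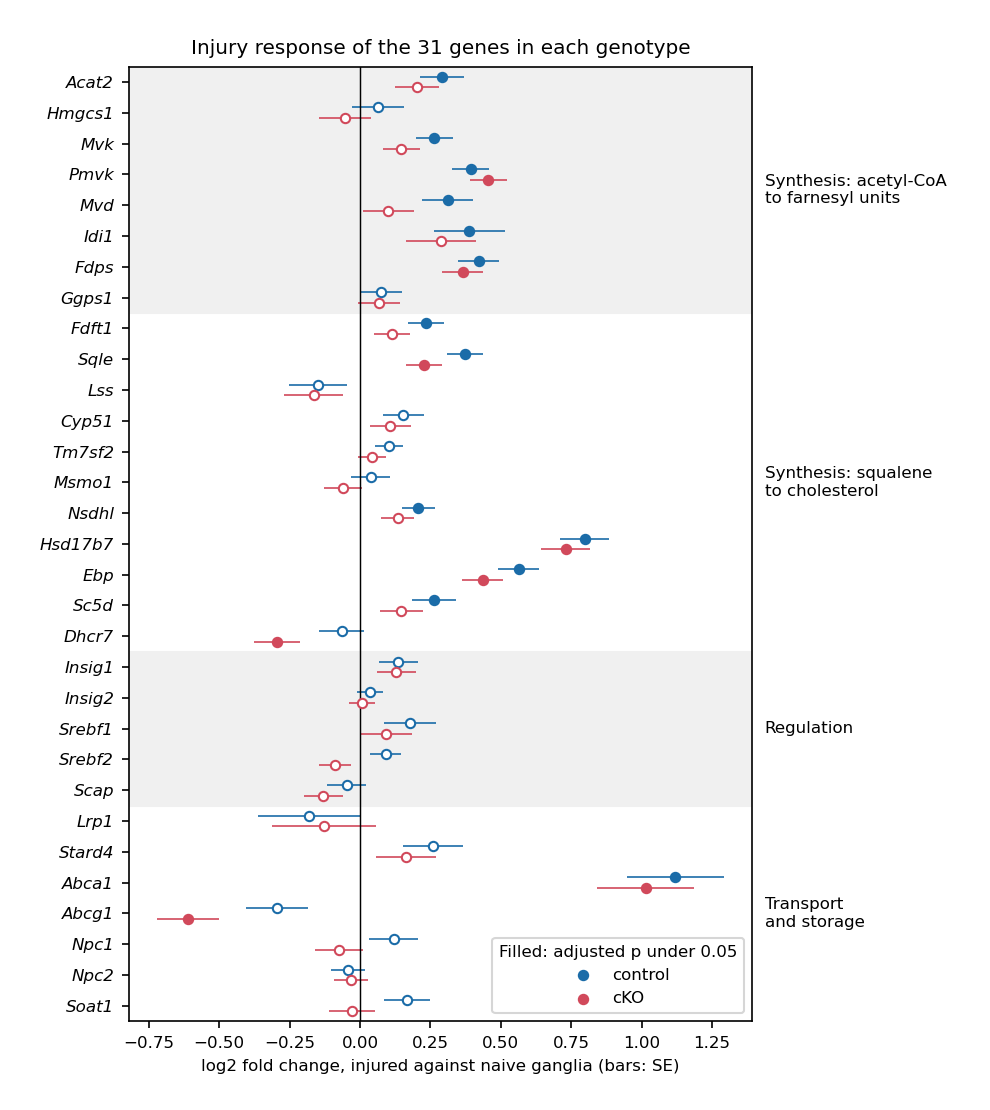
Log2 fold change of injured against naive ganglia for the 31 genes, ordered by role, in control (blue) and cKO (red) mice, n = 3 per group; bars are standard errors and filled points passed the test. Filled points lie to the right of zero except *Dhcr7* and *Abcg1* in cKO, and *Abca1* and *Hsd17b7* lie farthest out.

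The early enzymes carry acetyl units to mevalonate and on to isoprenoid units. In control ganglia 6 of these 8 rose. *Acat2*, the cytosolic acetoacetyl-CoA thiolase, rose by 0.29 on the log2 scale (SE 0.0786, adjusted p 0.0201), and *Mvk*, mevalonate kinase, by 0.26 (SE 0.0658, adjusted p 0.0135). *Mvd*, the decarboxylase of mevalonate diphosphate, rose by 0.31 (SE 0.0903, adjusted p 0.0284) and *Idi1*, the isopentenyl diphosphate isomerase, by 0.39 (SE 0.126, adjusted p 0.0457). The calls of *Acat2*, *Mvk*, *Mvd* and *Idi1* were lost without injured control replicate 1. Those of *Mvd* and *Idi1* were also lost without naive control replicate 1 or 2 and with labelled sex as a covariate, and that of *Idi1* with the replicate block too. *Mvd* lies wholly (100% of its span) inside *Gm20388*, which has 8481% of its counts and did not pass (log2 fold change 0.07, adjusted p 0.482); how reads in a stretch shared by several genes were counted is not given in the sources used here, so the rise of *Mvd* is uncertain. *Pmvk* and *Fdps* are given by library next. *Hmgcs1*, the synthase that makes HMG-CoA, was at 0.06 (SE 0.0917, adjusted p 0.68), and *Ggps1*, which makes the geranylgeranyl unit for protein anchors, at 0.08 (SE 0.075, adjusted p 0.529); neither passed. In cKO ganglia *Pmvk* and *Fdps* alone of the 8 passed.

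*Pmvk*, phosphomevalonate kinase (chr3:89454541-89469013), was at 86.8, 79.7 and 75.3 CPM in the naive control libraries and at 113, 106 and 97.8 CPM in the injured ones. The injured control libraries were all above the naive ones, and the log2 fold change was 0.39 (SE 0.0662, adjusted p 0.00132). In cKO it went from 75.8, 76.9 and 73.6 CPM to 99.6, 111 and 103 CPM, again without overlap (log2 fold change 0.46, SE 0.0663, adjusted p 0.000563).

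*Fdps*, the synthase of farnesyl diphosphate (chr3:89093588-89101959), was at 38.2, 37.2 and 35.6 CPM in naive control and at 55.2, 46.5 and 46.7 CPM in injured control libraries. Injured cKO libraries, at 45.7, 46.5 and 51.3 CPM, likewise stood clear of the naive ones at 37.1, 36.4 and 36.9 CPM. The log2 fold changes were 0.42 (SE 0.0724, adjusted p 0.00149) and 0.36 (SE 0.0725, adjusted p 0.00416). With sex by transcripts as a covariate the value in cKO was 0.30 and did not pass (adjusted p 0.109). Other genes cover 89.7% of the span of *Fdps*, and their exons 26.7% of its exon bases. Its main neighbour *Gm43738*, with 192% of its counts, did not pass the test in either genotype (log2 fold changes 0.07 and -0.06); the values of *Fdps* are uncertain.

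Of the 11 enzymes from squalene onward, 6 rose in control ganglia. Besides *Hsd17b7*, *Ebp* and *Sqle*, described below, these were *Fdft1*, squalene synthase, by 0.23 on the log2 scale (SE 0.064, adjusted p 0.021), *Sc5d*, lathosterol oxidase, by 0.26 (SE 0.078, adjusted p 0.0314), and *Nsdhl*, which acts in the removal of methyl groups from the sterol, by 0.21. The calls of *Fdft1*, *Sc5d* and *Nsdhl* were each lost without injured control replicate 1, naive control replicate 1 or naive control replicate 3. *Lss* (lanosterol synthase, -0.15), *Cyp51* (lanosterol demethylase, 0.15), *Tm7sf2* (a sterol reductase, 0.10), *Msmo1* (a methyl sterol oxidase, 0.04) and *Dhcr7* (-0.07) did not pass. *Fdft1* shares 18.3% of its exon bases with *Ctsb*, a lysosomal protease gene with 421% of its counts, which rose alongside it (log2 fold change 0.25, adjusted p 0.0159), so the rise of *Fdft1* is uncertain.

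*Hsd17b7*, a keto-reductase of the methyl removal steps (chr1:169949535-169969241), was at 88.2, 112 and 114 CPM in naive control and at 192, 181 and 173 CPM in injured control libraries. Naive cKO libraries were at 103, 110 and 114 CPM and injured ones at 174, 187 and 186 CPM. Every injured library was above every naive one, and the rise on the log2 scale was 0.80 for control mice (SE 0.0872, adjusted p 6.59e-05) and 0.73 for cKO mice (SE 0.0871, adjusted p 0.00015).

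*Ebp*, the sterol isomerase (chrX:8185329-8193512), was at 31.7, 32.9 and 31.8 CPM in naive and 51.3, 45.3 and 45.6 CPM in injured control libraries. In cKO it was at 34.3, 34.2 and 32.6 CPM and then at 40.9, 49.1 and 48.2 CPM. The groups did not overlap in either genotype, and the log2 fold changes were 0.56 (SE 0.0735, adjusted p 0.000233) and 0.44 (SE 0.0735, adjusted p 0.00148). With sex by transcripts as a covariate *Ebp* was at 0.27 in cKO and did not pass (adjusted p 0.0748). *Ebp* and *Nsdhl* are X-linked. In cKO the injured males by transcripts (replicates 2 and 3) had the higher *Ebp* values, while the naive and injured control mice were all female by transcripts. Injured cKO replicate 1 was also the lowest of its group for *Pmvk*, *Fdps*, *Sqle* and *Hsd17b7*, which are not X-linked, but not for *Abca1*, *Dhcr7* or *Abcg1*. The part of sex was not tested.

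*Sqle*, squalene epoxidase and a rate-limiting step (chr15:59315077-59331192), was at 226, 245 and 236 CPM in naive and 317, 307 and 289 CPM in injured control libraries. The cKO values were 258, 247 and 257 CPM and 275, 307 and 320 CPM. Injured libraries were above naive ones throughout (control: log2 fold change 0.37, SE 0.0638, adjusted p 0.00148; cKO: 0.23, SE 0.0637, adjusted p 0.027). The call in cKO was lost in 10 of 16 alternative fits, among them those without naive cKO replicate 1, 2 or 3 or injured cKO replicate 2 or 3, and with sex by transcripts as a covariate the log2 fold change was 0.099.

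*Dhcr7*, which closes the route to cholesterol (chr7:143823145-143848410), went the other way in cKO, from 124, 115 and 119 CPM to 93.1, 91.0 and 110 CPM (log2 fold change -0.30, SE 0.0813, adjusted p 0.0245). All 3 injured cKO libraries were below the naive ones. In control the groups overlapped, at 102, 117 and 111 CPM and at 111, 104 and 101 CPM (adjusted p 0.623). The call in cKO was lost without injured cKO replicate 1 or 2, without naive cKO replicate 1 or 3, with sex by transcripts as a covariate and without the libraries of doubtful sex (adjusted p 0.0622 to 0.128 over these fits).

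**Figure D2:**
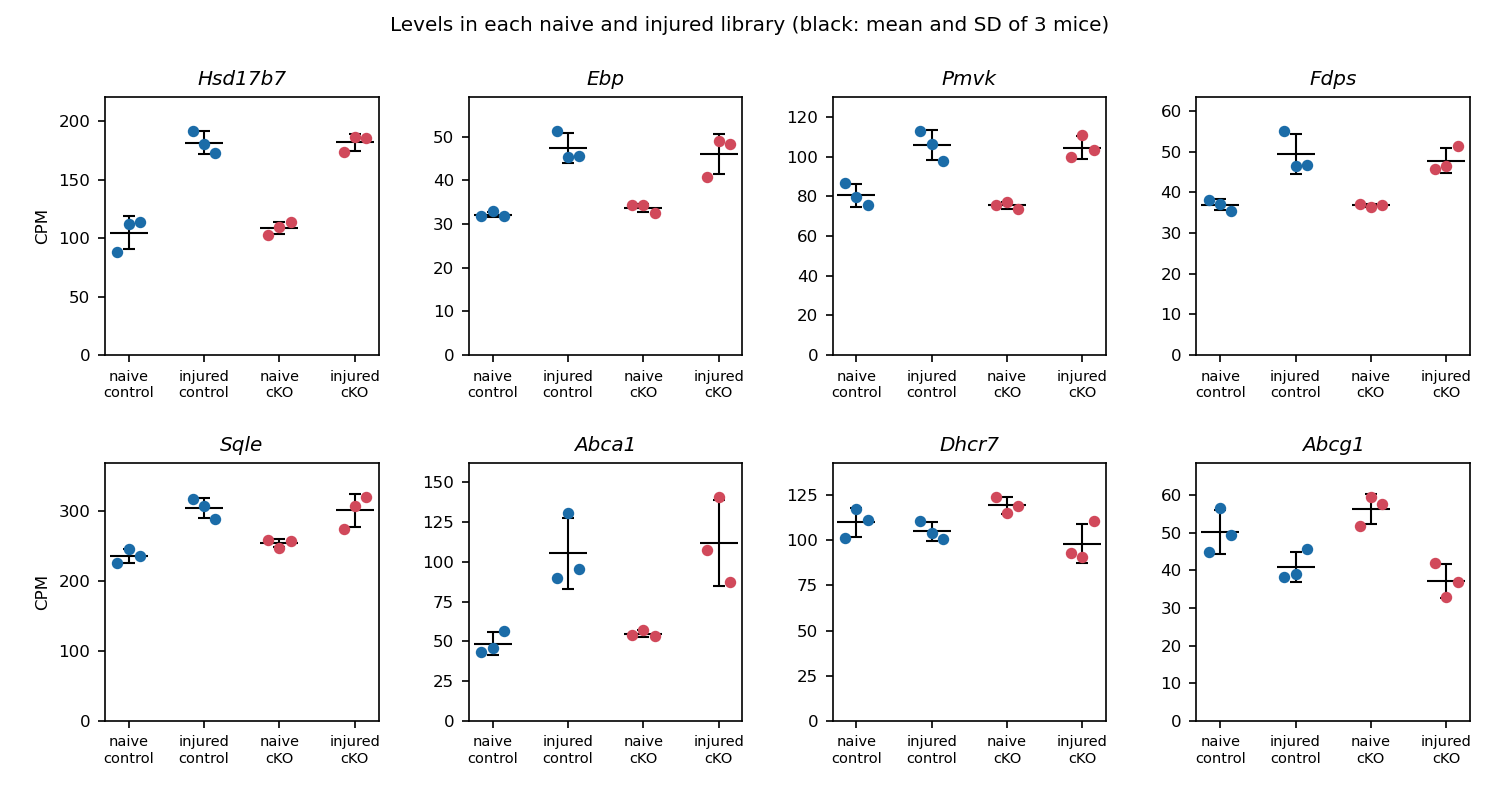
CPM of 8 genes in each of the 12 naive and injured libraries; points are mice, black bars the mean and SD, and every axis starts at 0. In each genotype *Hsd17b7*, *Ebp*, *Pmvk*, *Fdps*, *Sqle* and *Abca1* are higher in every injured library than in any naive one, while *Dhcr7* and *Abcg1* separate in cKO alone.

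None of the 5 regulators passed the test in either genotype. *Srebf2*, the main SREBP of cholesterol genes, was at 225, 240 and 233 CPM in naive and 255, 260 and 227 CPM in injured control libraries, which overlap (log2 fold change 0.09, SE 0.0559, adjusted p 0.285). *Insig1*, itself a target of SREBP, had 0.14 (SE 0.0693, adjusted p 0.194) in control mice and 0.13 (SE 0.0694, adjusted p 0.24) in cKO mice. *Srebf1*, *Insig2* and *Scap* had log2 fold changes between -0.13 and 0.18.

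Of the 7 transport and storage genes, *Abca1* rose most. *Abca1*, which loads cholesterol onto apolipoproteins (chr4:53030787-53159895), was at 43.2, 45.6 and 56.6 CPM in naive and 89.6, 131 and 95.4 CPM in injured control libraries. In cKO it was at 53.7, 57.2 and 53.3 CPM and at 107, 141 and 87.3 CPM. The groups were apart in each genotype, and the rise was 2.17-fold in control (log2 fold change 1.12, SE 0.173, adjusted p 0.000726) and 2.02-fold in cKO (1.01, SE 0.172, adjusted p 0.00151). *Abcg1*, an exporter to larger lipoproteins (chr17:31057675-31117988), was at 51.8, 59.5 and 57.7 CPM in naive and 41.8, 32.8 and 36.9 CPM in injured cKO libraries. These did not overlap (log2 fold change -0.61, SE 0.109, adjusted p 0.00216), whereas the control values, 44.9, 56.4 and 49.3 against 38.1, 39.0 and 45.5 CPM, overlapped at the edge (log2 fold change -0.29, SE 0.109, adjusted p 0.0762). With sex by transcripts as a covariate *Abcg1* was at -0.44 in cKO and did not pass (adjusted p 0.103). *Lrp1* (an endocytic receptor), *Stard4* (a sterol carrier), *Npc1* and *Npc2* (which release cholesterol from lysosomes) and *Soat1* (which esterifies it for storage) did not pass in either genotype.

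Groups did not overlap for 15 of the 31 genes in control and 13 in cKO, against 38.4% and 36.3% of all genes, so separation of 3 against 3 libraries is by itself common in these data. Averaged over both genotypes, 14 genes were called higher and 2 lower, where 34.1% of all genes were called, 18.4% higher and 15.7% lower; the groups did not overlap for 9 of the 31, against 19.7% of all genes. *Stard4*, not called in either genotype alone, was just inside the threshold there, at a log2 fold change of 0.21 (SE 0.0756, adjusted p 0.0494), and the call was lost in 16 of 21 alternative fits, 10 of them leaving out 1 library. The number called in control rested on single libraries: it was 6 without injured control replicate 1, 8 without naive control replicate 1 and 8 without naive control replicate 3. The 6 called without injured control replicate 1 were the same *Pmvk*, *Fdps*, *Sqle*, *Hsd17b7*, *Ebp* and *Abca1*. With sex by transcripts as a covariate the number in cKO was 3 (*Pmvk*, *Hsd17b7* and *Abca1*).

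Markers of the cells of the ganglion were set beside these values. After the crush, 2 of 39 marker genes passed upward in control ganglia (*Glul* and *Kcnj10*) and 3 downward (*Isl1*, *Fabp7* and *Cldn5*), against 12.9% and 8.73% of all genes. In cKO 1 passed upward (*Glul*) and 2 downward (*Rbfox3* and *Isl1*), against 10.7% and 7.89%. None of the 7 Schwann cell and myelin markers was called in either genotype. The summed level of those 7 was 4008 to 5206 CPM in naive and 3790 to 4896 CPM in injured control libraries. The 4 satellite glia markers (*Glul*, *Kcnj10*, *Fabp7* and *Cdh19*) did not move together in control: *Glul* and *Kcnj10* were called higher and *Fabp7* lower. Their sum was 655 to 693 CPM in naive and 811 to 869 CPM in injured control libraries, with *Glul* at a log2 fold change of 0.58 (adjusted p 0.000428). In cKO this sum went from 633 to 796 CPM up to 843 to 936 CPM, without overlap. The sum of the 2 markers of cycling cells went from 9.72 to 29.3 CPM down to 6.31 to 8.06 CPM in cKO, also without overlap. None of the markers was at 0 in any group. Their part in the result was not tested, and in bulk ganglia fewer cells of a type and less RNA per cell cannot be told apart.

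Another 30 genes of the same or bordering pathways followed the same comparison. In control ganglia 7 were called higher and 2 lower (12.9% and 8.73% of all genes), in cKO 4 higher and 2 lower (10.7% and 7.89%), so the cKO count is near the background. *Ch25h*, which makes 25-hydroxycholesterol, went from 0.815, 0.468 and 0.950 CPM to 2.59, 3.13 and 1.87 CPM in control, without overlap and at a low level (log2 fold change 1.75, SE 0.256, adjusted p 0.000514), and rose in cKO too (1.37, SE 0.255, adjusted p 0.00272). *Lrp8*, a lipoprotein and reelin receptor, rose by 0.54 (SE 0.0534, adjusted p 3.37e-05) in control mice and by 0.28 (SE 0.0531, adjusted p 0.00283) in cKO mice, and *Gramd1a*, a carrier of cholesterol from the plasma membrane, by 0.41 and 0.30. Of 7 fatty acid genes known to answer to SREBP, 3 rose in control, with *Fasn*, the fatty acid synthase, at 0.34 (SE 0.109, adjusted p 0.0424); in cKO none rose and *Elovl6*, an elongase, fell (-0.35, SE 0.0711, adjusted p 0.0045). *Abcg4*, a sterol exporter, fell in each genotype (-0.33 and -0.34), *Cyp7b1*, an oxysterol hydroxylase, fell in control (-0.41, SE 0.121, adjusted p 0.0312), and *Fntb*, a subunit of the enzyme that attaches farnesyl to proteins, rose in cKO (0.20, SE 0.0597, adjusted p 0.0379).

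The sham groups ask whether these genes differ between the operated and the opposite side when no crush is made. An effect of the operation on both sides would not show in this comparison. None of the 31 differed between the sides of the sham mice (edgeR, 0.00451% of all genes called; none of the 31 at an unadjusted p under 0.05 either, and none called by DESeq2). The sides did not overlap for 0 of the 31, against 4.12% of all genes. The 16 genes called in the averaged injury comparison had side differences between -0.08 and 0.25 on the log2 scale, with a median of 0.02. *Abca1* had the largest: in control mice 48.4 and 44.0 CPM contralaterally and 65.5 and 48.7 CPM ipsilaterally, in cKO 54.8 and 47.0 against 50.6 and 61.6 CPM. The sides overlapped in cKO, and the averaged log2 fold change was 0.25 (SE 0.114, adjusted p 0.693; upper 95% bound 0.51). The injury and sham comparisons come from different mice and tables, and the difference between them was not tested.

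Deletion of *Ahr* as labelled made no difference that passed the test for any of the 31 genes in any setting. None was called in naive ganglia (0.00941% of all genes called, 0.0047% in each direction), injured ganglia (0.00941%, again 0.0047% in each direction), cultured neurons (0%), or the ipsilateral (0.00451%) or contralateral (0%) sham ganglia, and DESeq2 called none either. At an unadjusted p under 0.05 there were 1, 0, 0, 1 and 2 of the 31 in these settings, where 5.79%, 2.72%, 8.0%, 7.59% and 5.23% of all genes reached that level. The genotypes did not overlap for 7 genes in naive ganglia (12.1% of all genes), 0 in injured ganglia (8.73%), 0 in neurons (14.7%), 8 in ipsilateral (35.8%) and 7 in contralateral sham ganglia (38.3%). In naive ganglia 26 of the 31 had a log2 fold change above zero, with a median of 0.09 against 0.00037 for all genes, and in injured ganglia 10 of 31. The naive median was 0.070 without naive control replicate 1 and 0.131 without naive control replicate 2. The genes vary together from library to library, as described below, so these are not 26 separate observations. For 29 of the 31 genes in naive, 30 in injured and 29 in neuron comparisons the 95% interval lay within 0.5 on the log2 scale in either direction. In naive ganglia the lowest bound was -0.56 (*Lrp1*) and the highest 0.56 (*Abca1*). The naive and injured libraries also enter the injury comparisons.

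**Figure D3:**
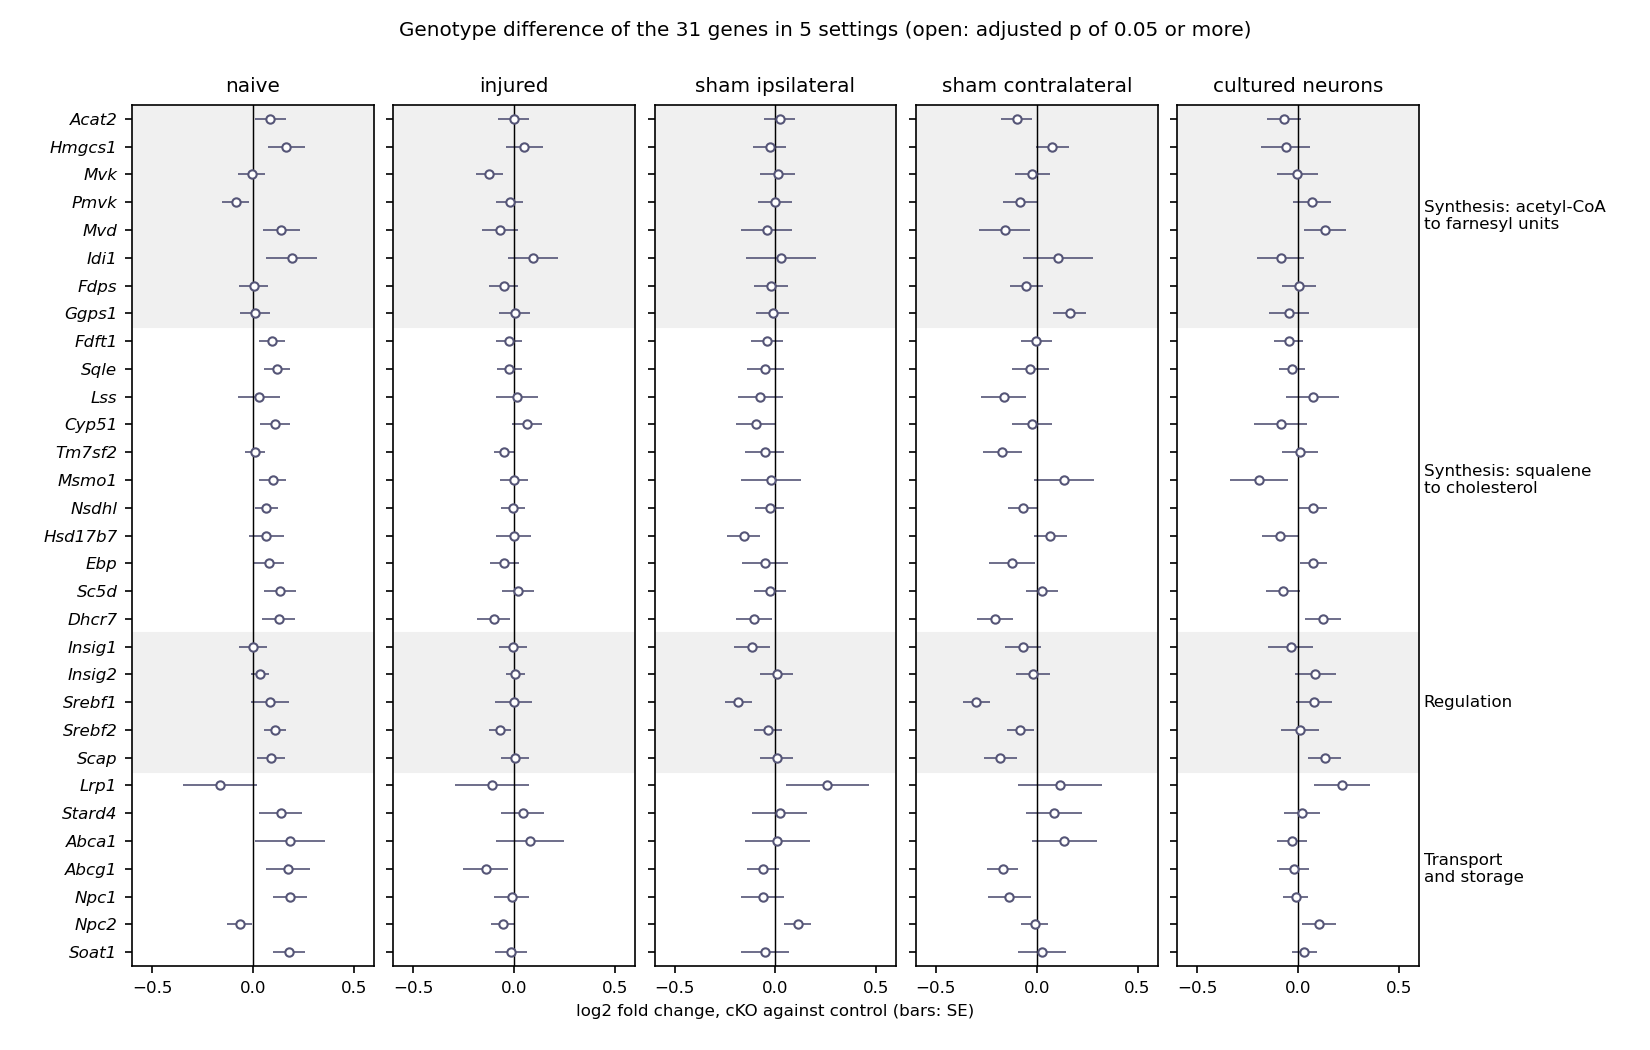
Log2 fold change of cKO against control for the 31 genes in 5 settings, with standard errors (n = 3 per genotype in the naive, injured and neuron settings, 2 in the sham ones). No point passed the test, so all are open; most lie within 0.2 of zero, and *Srebf1* is the lowest in the contralateral sham ganglia.

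*Srebf1* had the smallest p of these tests. In contralateral sham ganglia it was at 105 and 100 CPM in control and 86.8 and 80.8 CPM in cKO, and ipsilaterally at 102 and 99.5 against 88.5 and 84.5 CPM. The cKO values were below the control values on each side, which come from the same mice, 2 per genotype. The log2 fold changes were -0.30 (SE 0.0666, unadjusted p 0.00218, adjusted p 0.88) and -0.18 (SE 0.0665, adjusted p 0.575). In naive ganglia the groups overlapped, at 58.2, 52.0 and 58.0 against 57.2, 66.9 and 52.9 CPM.

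Whether the injury response itself depended on genotype was asked with an interaction term. None of the 31 passed (0% of all genes called), with 1 of them at an unadjusted p under 0.05 (*Srebf2*, -0.18, SE 0.079, unadjusted p 0.042, adjusted p 1), where 2.95% of all genes reached that level; DESeq2 called none. The interaction was below zero for 28 of the 31 genes, with a median of -0.10 against -0.0055 for all genes. That median was -0.048 without injured cKO replicate 2, -0.053 without injured control replicate 1, -0.060 without naive control replicate 1 and -0.155 without injured cKO replicate 3. The genes vary together from library to library, as described next, so these are not 28 separate observations. For *Dhcr7* and *Abcg1*, called lower in cKO alone, it was -0.23 (SE 0.115) and -0.32 (SE 0.154), so the response of neither gene was shown to differ between genotypes.

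The synthesis enzymes varied together among replicates of 1 group. In deviations from the group mean over the 12 naive and injured libraries, the median Pearson correlation over the 171 pairs of synthesis enzymes was 0.55, and 0.24 over the 21 pairs of transport genes. Over all pairs of 11715 genes with at least 10 CPM it was 0.017. In the 8 sham libraries the enzymes had 0.68 and in the 6 neuron libraries 0.45; the points share a library, and with groups of 2 or 3 the deviations mirror each other. By Spearman's measure the medians were 0.52, 0.67 and 0.43. Sham contralateral cKO replicate 1 had all 19 enzymes above its group mean, injured control replicate 1 and injured cKO replicate 3 had 18 of 19, and neuron control replicate 3 had 1 of 19. Sham contralateral cKO replicate 2, the mirror of replicate 1 in a group of 2, had 0 of 19. Naive control replicate 2 and sham ipsilateral control replicate 2 had 17, and injured control replicate 3 and sham ipsilateral control replicate 1 had 2. The median deviation of the 19 was 0.10 in injured control replicate 1 on the log2 scale, while that of all genes there was 0.0023. That library is also the one whose removal took the most calls from the injury comparison in control.

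**Figure D4:**
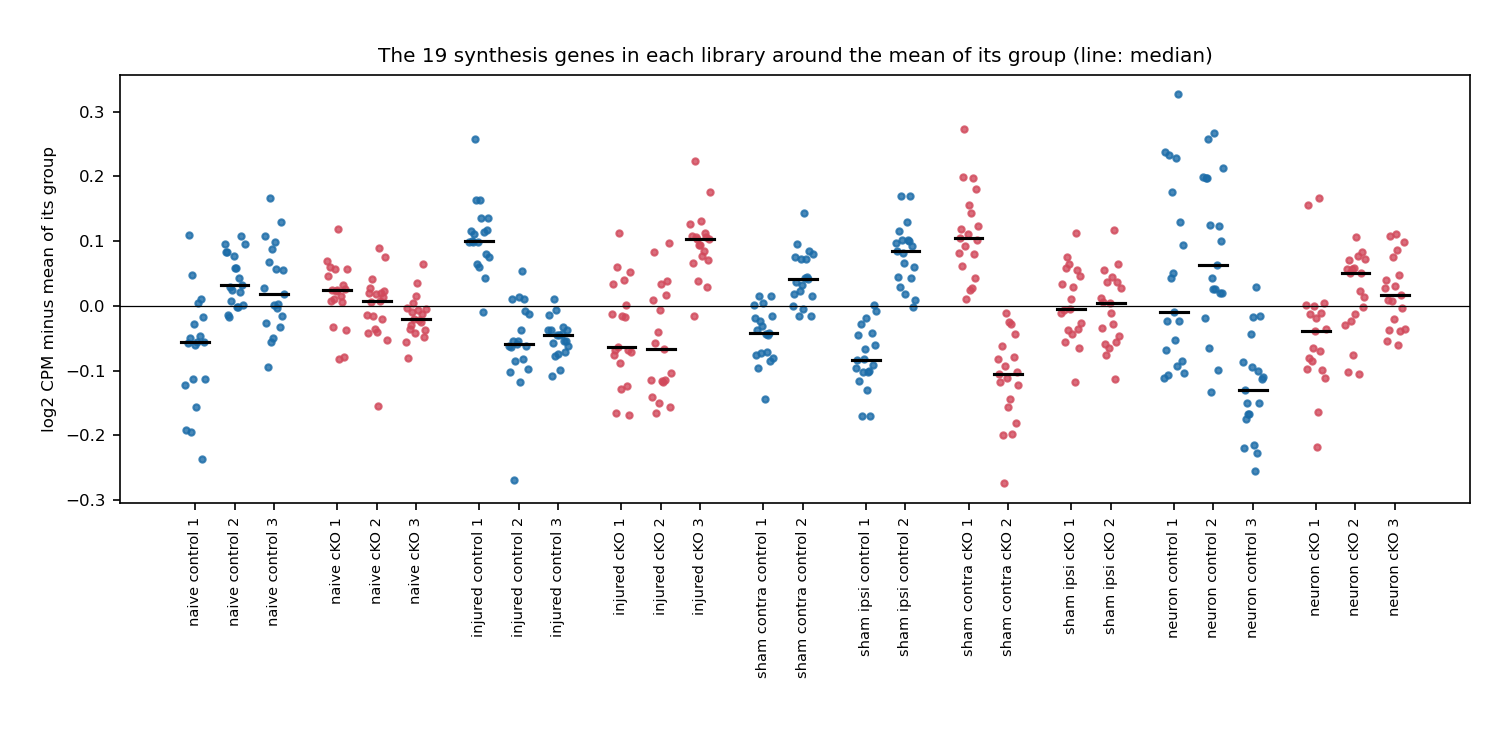
Deviation of each of the 19 synthesis enzymes from the mean of its group (log2 CPM) in all 26 libraries, control in blue and cKO in red, with the median as a line. In injured control 1, injured cKO 3 and sham contra cKO 1, among others, nearly all points lie above zero. In sham contra cKO 2 and neuron control 3, among others, nearly all lie below.

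The levels of the genes can be compared with each other only per length, and the deposited FPKM divide by the span of the gene with its introns, which puts genes with long introns low. On that scale *Hmgcs1* was highest in naive control ganglia at 32.1 ± 2.89 FPKM (SD, n = 3), followed by *Insig1* at 19.8 ± 0.668, *Sc5d* at 18.3 ± 0.491, *Msmo1* at 17.2 ± 0.166 and *Sqle* at 15.8 ± 0.304. *Abca1* was lowest at 0.407 ± 0.056 FPKM, below *Npc1* at 0.579 ± 0.0223 and *Soat1* at 0.641 ± 0.0526. The gap between *Npc1* and *Soat1* is close to the SD of *Soat1*, and *Sc5d* and *Msmo1* lie apart by more than the SD of either.

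Semi-purified neurons 24 hours in culture were set against whole ganglia of the same genotype. Against naive ganglia, 25 of the 31 genes differed in control (16 higher, 9 lower) and 27 in cKO (17 and 10), but 83.2% of all genes did in control (41.7% higher, 41.6% lower) and 82.1% in cKO (42% and 40.1%), so these counts are near the background. The groups did not overlap for 24 and 28 of the 31, against 82.4% and 86.2% of all genes. The neurons and the naive ganglia come from different tables, and the choice of ganglia decided many directions: the contralateral sham ganglia, from the same table as the neurons, differed from the naive ones too. *Fdps* shows this: at 35.6 to 38.2 CPM in naive control, 159 and 164 CPM in contralateral sham control, and 138, 147 and 120 CPM in control neurons, it was higher than naive (log2 fold change 1.88) and did not pass against sham ganglia (-0.21, SE 0.0888, adjusted p 0.0548). Its main neighbour *Gm43738* was higher in neurons than in naive ganglia too (0.81 in control and 0.75 in cKO), so the values of *Fdps* are uncertain here as well. Of the 31 genes, 9 had a mean at least 1.5 times higher in contralateral sham than in naive control ganglia and 3 a mean lower by that factor, as had 26.2% and 16.5% of genes with at least 10 CPM. Table, sex and surgery differ together there, with allele number and tamoxifen (not given for the sham groups) not matched, and their parts cannot be told apart.

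Called against both kinds of ganglia and in the same direction, 8 genes were higher and 5 lower in control neurons, and 11 higher and 5 lower in cKO neurons. The shares of all genes were 29% higher and 25.3% lower in control and 29.1% and 23.6% in cKO. In both genotypes the higher ones included the synthesis genes *Idi1*, *Sqle*, *Lss* and *Cyp51*, the regulator *Insig1* and the transport genes *Abca1*, *Npc1* and *Soat1*; *Scap*, *Lrp1* and *Npc2* were called against both in cKO only, though no gene was called for cKO against control in neurons. The call of *Npc2* against naive ganglia (log2 fold change 0.23, adjusted p 0.0208) was lost with DESeq2, with RLE factors, with the stricter filter and without naive cKO replicate 1 or 3 or neuron cKO replicate 2. *Scap* shares 13.2% of its exon bases with *5830462I19Rik*, and other genes cover 44.1% of the span of *Lss* (mainly *4930483K19Rik*, with 60.1% of its counts). Both neighbours were higher in the neurons than in naive ganglia too (1.57 and 0.53 in cKO), so the values of *Scap* and *Lss* are uncertain. The lower ones were *Acat2*, *Tm7sf2*, *Nsdhl*, *Dhcr7* and *Abcg1* in each genotype. Against naive ganglia, the call of *Abcg1* in control was lost with no filter and without naive control replicate 2, and that of *Idi1* in cKO without naive cKO replicate 1. Against one kind of ganglia higher and the other lower were *Pmvk*, *Mvd*, *Ggps1*, *Sc5d* and *Srebf1* in control and *Pmvk* in cKO. Over all genes, 8.48% in control and 7.37% in cKO were called in opposite directions. *Srebf1* has 3.11% of its exon bases in exons of other genes. *Rai1*, which overlaps it and has 80.8% of its counts, had the same log2 fold change of 0.48 in control neurons against naive ganglia. In cKO neurons *Rai1* was at 0.23 and *Srebf1* at 0.48. The value of *Srebf1* is uncertain.

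*Abca1* was at 43.2 to 56.6 CPM in naive control, at 48.4 and 44.0 CPM in contralateral sham control and at 146, 166 and 169 CPM in control neurons, clear of each ganglion group (log2 fold changes 1.74, SE 0.0949, and 1.85, SE 0.143). *Npc1* was at 24.1 to 26.2 CPM, at 34.7 and 30.2 CPM and at 84.9, 97.5 and 89.9 CPM in the same groups, again without overlap (1.88, SE 0.0927, and 1.54, SE 0.0946). *Npc1* shares 5.31% of its exon bases with *Rmc1*, which was higher in the neurons too (1.65 against naive ganglia), so its value is uncertain.

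*Cyp51* was at 139 to 150 CPM in naive control, 136 and 144 CPM in contralateral sham control and 332, 288 and 237 CPM in control neurons (log2 fold changes 0.99, SE 0.11, and 1.08, SE 0.132). All neuron libraries lay above the ganglia. Its neighbour *Akap9*, which shares 3.76% of its exon bases, had 0.99 against naive ganglia as well, so its value is uncertain too. *Tm7sf2*, at 42.2 to 42.4, then 89.1 and 98.5, then 32.5, 36.2 and 35.4 CPM, was lower in neurons than in either, but by 0.27 on the log2 scale against naive and 1.38 against sham ganglia. It has 12.1% of its exon bases in exons of other genes. Its neighbour *Vps51*, with 93.6% of its counts, was higher in control neurons than in naive ganglia (0.46), so the value of *Tm7sf2* is uncertain. *Nsdhl* was at 91.2 to 94.7, then 116 and 123, then 68.7, 76.2 and 65.2 CPM in these groups (log2 fold changes -0.40, SE 0.0613, and -0.71, SE 0.0757), below the ganglia in every neuron library.

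**Figure D5:**
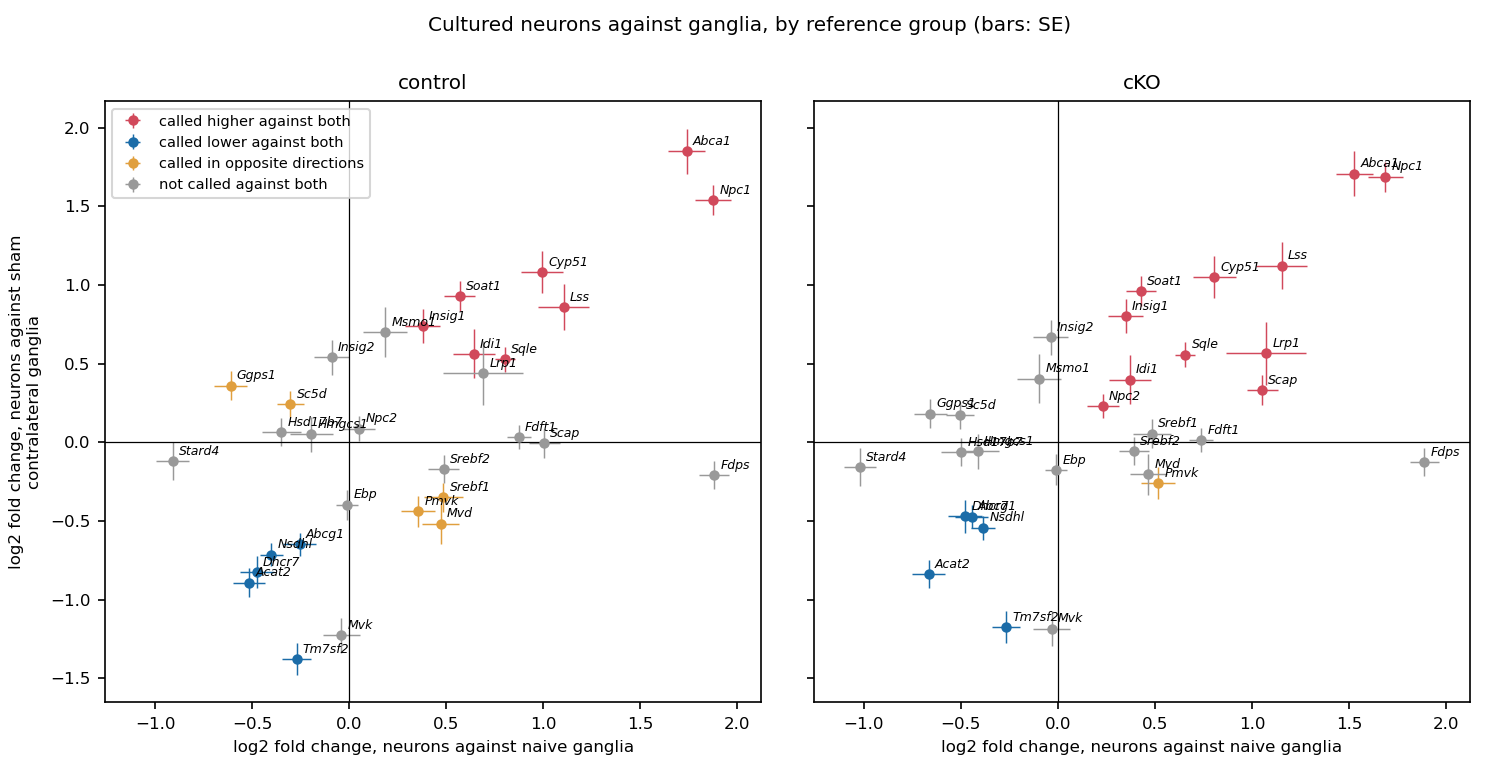
Log2 fold change of cultured neurons against naive ganglia (horizontal) and against contralateral sham ganglia (vertical) for the 31 genes in control and cKO, with standard errors. Red and blue genes were called in the same direction against both references and orange ones in opposite directions; *Fdps* lies far right of zero and just below it on the vertical axis.

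Of the 39 cell type markers 11 were higher and 28 lower in control neurons than in naive ganglia. The 9 sensory neuron markers were present in the neuron libraries and at 0 in none, but summed to 3786 to 4159 CPM in control neurons against 5627 to 6358 CPM in naive control ganglia. The 7 Schwann cell and myelin markers summed to 737 to 839 against 4008 to 5206 CPM. The 5 endothelial markers summed to 943 to 1303 against 96.4 to 130 CPM, all 5 called higher. The part of cell content, of culture and of depth (control replicate 1 had the lowest total) was not tested. Against naive ganglia, 16 of the 30 other pathway genes were higher and 8 lower in control neurons, led by *Gramd1a* (2.18) and *Ch25h* (2.07) upward and *Cyp27a1*, a mitochondrial sterol hydroxylase, downward (-2.63). The shares of all genes were 41.7% and 41.6%, or 83.2% in either direction, so the count in both directions is near the background; these genes were not set against the sham ganglia.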

How the data were processed

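Per the labels' protocols, the 26 libraries were made with the TruSeq Stranded mRNA kit. The submitters' processing notes name Trim Galore, HISAT2, featureCounts and the mouse build mm10; versions, settings and the strand rule are not given in the sources used here. The authors deposited whole-number counts per gene in 2 tables and matching FPKM. The deposited FPKM divide by the gene span: the implied length was within 0.1% of the GENCODE M21 span for 99.28% of 20424 genes. How reads in stretches shared by overlapping genes were counted is not given either.

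The 31 genes, the lists and the roles were chosen with earlier results of these data known. Counts were fitted with edgeR 4.0.16 (R 4.3.3; filterByExpr with minimum count 10 and total 15, TMM, 1 mean per group, quasi-likelihood test, two-sided), in separate fits of 12 naive and injured, 6 neuron, 8 sham, and 12 neuron and naive libraries, with Benjamini-Hochberg adjustment over all 21261, 23295, 22160 and 22185 genes. Standard errors were obtained by dividing the log2 fold change by the root of F. Nothing in the labels says more of replicates than the mouse or culture number, so p-values measure the spread between these samples. Common biological coefficients of variation were 0.0986, 0.131, 0.155 and 0.122.

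All 31 genes are described by role; values per library are given for up to 8 of them per main comparison, mainly those of smallest p, and of the other pathway genes at most 6 called ones of largest change are named per comparison. No pair of replicates was alike within counting noise. Alternatives were DESeq2 1.42.0, RLE factors, other filters, an adjusted p under 0.1, sex as a covariate, the replicate block, single libraries left out, another ganglion reference and, chosen after seeing the data, leaving out the 2 libraries whose sex label and transcripts differ. The sides of a sham mouse are paired by the labels, which do not say whether replicate numbers pair other samples across groups. Correlations of deviations between groups at the same replicate number ran from -0.418 to 0.412. For the paired sides of the sham mice they were 0.229 in control and -0.159 in cKO, so this measure cannot decide whether other samples are paired.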

Additional observations from a re-analysis of the deposited data

Results flagged for a closer look

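Of 310 pairs of settings compared for opposite genotype differences, 2 were found in which every cKO library lay on one side of the control libraries in naive ganglia and on the other side in ipsilateral sham ganglia. Over all genes, 2.15% of such pairs showed opposite separation. Both cases fall between the same settings, where 2 of the 31 genes and 1.94% of all genes showed it; a count of 2 supports no statement about these genes. *Sqle* had a log2 fold change of cKO against control of 0.12 in naive and -0.051 in ipsilateral sham ganglia, and *Srebf2* of 0.11 and -0.036. None of these 4 values passed the test, and the difference between the settings was not tested.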

How the results depend on the processing

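The count of the 31 genes called after injury was 13 in control, 8 in cKO and 16 averaged. With sex by transcripts as a covariate, where the injured cKO level rests on replicate 1, the cKO count was 3. The cause was not tested. Leaving out 1 library gave 6 to 12 in control, 6 to 8 in cKO and 13 to 16 averaged, 24 to 26 and 25 to 27 for neurons against naive ganglia in control and cKO, and 0 for each genotype, interaction and sham side comparison. With the replicate block the counts were 12, 8, 15, 25 and 27, and 0 elsewhere; it changed no count by 1.5 times. No blocked fit was made for the genotype comparisons within the sham groups. Without the 2 libraries of doubtful sex the injury counts were 10, 6 and 16. In the injury comparisons, no direction of a called gene turned under any alternative: of 208 values in control 169 stayed past the threshold, of 128 in cKO 109, and of 336 averaged 302. Neurons against contralateral sham ganglia, in place of naive ones, turned these log2 fold changes in control: *Pmvk* -0.44, *Mvd* -0.52, *Fdps* -0.21, *Ggps1* 0.36, *Hsd17b7* 0.067, *Sc5d* 0.24, *Srebf1* -0.35, *Srebf2* -0.17 and *Scap* -0.0062; and in cKO: *Pmvk* -0.26, *Mvd* -0.20, *Fdps* -0.12, *Ggps1* 0.18, *Sc5d* 0.17 and *Srebf2* -0.053. The lowest count of any of the 31 genes was 532, and no fit at matched depth was made; groups of 2 or 3 limit the size of difference that can be called.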
